A study of Arabidopsis thaliana with 18 samples.

Results

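BETA-VPE (AT1G62710) encodes the seed form of the vacuolar processing enzymes of Arabidopsis thaliana. It is 1 of 13287 genes to which the annotation used here gives a probe set of their own on the Affymetrix ATH1 array. The array holds 22810 probe sets. Besides the controls, 8730 of them have no gene in that annotation, so 13287 is not the number of genes the array can read. The gene was chosen by its measured signal in these arrays, above all its high level in vte1 at day 1, so its own values are a description and carry no test.

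Vacuolar processing enzymes are cysteine proteases, also called legumains or asparaginyl endopeptidases, that cut proteins on the carboxyl side of asparagine. In the maturing Arabidopsis seed BETA-VPE is known as the main enzyme that cuts the precursors of the 12S globulins and 2S albumins into their mature chains inside protein storage vacuoles. The family has 3 other members in Arabidopsis: DELTA-VPE, described from the seed coat, and ALPHA-VPE and GAMMA-VPE, described from vegetative tissue.

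The arrays measured RNA of whole Col-0 background seedlings of 3 genotypes at 2 times. The vte2-1 mutant lacks homogentisate phytyltransferase, the first committed enzyme of tocopherol synthesis. The vte1-1 mutant lacks tocopherol cyclase, a later enzyme of the same pathway. Both are tocopherol deficient and were set against wild-type (WT) Col-0. Seeds of all groups had 5 days at 6 °C on half-strength MS medium and were then moved to 22 °C with a 12 h photoperiod. Seedlings were collected 3 days or 1 day after the move, with 3 biological replicates in each of the 6 groups and 18 arrays in all. Each mutant is represented by a single allele, and a sample pooled whole seedlings of about 100 mg.

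Every array had a trimmed mean signal of 500 to 500.1 and a median signal of 122 to 181.1. The median was higher in every day 3 array (164.4 to 181.1) than in any day 1 array (122 to 161.4). In the 3 day 1 groups replicate 3 had the highest median signal, at 161.4 in vte2, 143.9 in vte1 and 148.9 in WT. Replicate 3 also had the lowest ratio of 3′ to 5′ GAPDH control signal in all 6 groups. No read depth exists for arrays, and the number of arrays limits the precision.

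At day 3 the BETA-VPE signal was 184.5, 256.3 and 225.4 in vte2 for replicates 1, 2 and 3. It was 234.6, 455 and 368 in vte1 at that time, and 216.8, 295.6 and 342.1 in WT. The 3 genotypes overlapped at day 3.

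At day 1 the BETA-VPE signal was 437.5, 348.4 and 204.1 in vte2. In vte1 it was 3272, 2822 and 1263.6, and in WT 735.9, 949.8 and 517.6. Every vte1 array lay above every WT array, and every vte2 array lay below every WT array. In each genotype replicate 3 gave the lowest BETA-VPE signal at day 1, and these are the arrays with the highest median signal and the lowest GAPDH ratio of their groups. The part of array quality in the level was not tested.

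**Figure D1:**
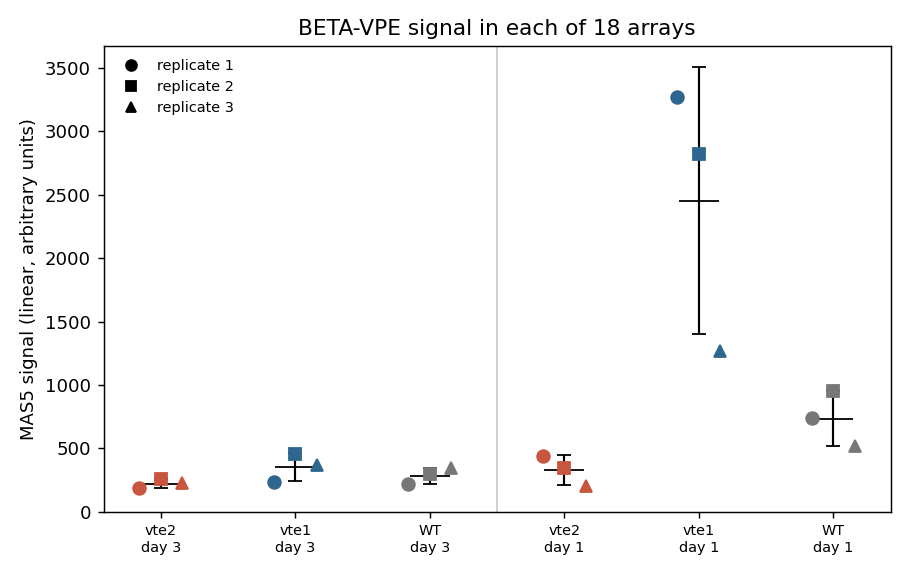
BETA-VPE signal (MAS5, linear, arbitrary units, vertical axis) in each of 18 arrays by genotype and day, with the replicate number as the symbol and the group mean ± SD as lines (n = 3). The vte1 arrays of day 1 reached 1263.6 to 3272, above the highest array of any other group at 949.8.

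The 6 groups were ordered by mean signal as follows. BETA-VPE averaged 2453 ± 1054 in vte1 at day 1 (SD, n = 3 here and for each group mean below), followed by 734.4 ± 216.1 in WT at day 1. The remaining 4 groups were vte1 at day 3 (352.5 ± 111), vte2 at day 1 (330 ± 117.8), WT at day 3 (284.8 ± 63.3) and vte2 at day 3 (222.1 ± 36.0). The 2 highest groups were each clear of the next group, whereas neighbours among the lower 4 overlapped and did not differ beyond their spread. The coefficient of variation over 3 arrays ran from 16.2% in vte2 at day 3 to 43.0% in vte1 at day 1.

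The mean BETA-VPE signal in vte1 at day 1 was 3.34 times that of WT. On the log2(signal + 22) scale the difference was 1.64 ± 0.35 (SE from the limma fit to all 18 arrays, as for every SE of a log2 difference here). By replicate number, vte1 stood at 4.45, 2.97 and 2.44 times WT. Of 15922 probe sets tested, 6.47% had all 3 vte1 arrays above all 3 WT arrays at day 1, and 0.251% had a larger difference upward.

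In vte2 the day 1 mean was 0.449 times that of WT, a log2 difference of -1.12 ± 0.35. The ratios by replicate number were 0.594, 0.367 and 0.394. All 3 vte2 arrays lay below all 3 WT arrays for 4.27% of the tested probe sets, and 0.182% had a larger difference downward. Both mutants are compared here with the same 3 WT arrays. Arrays of vte1 entirely above WT together with arrays of vte2 entirely below it were found for 0.528% of the tested probe sets at day 1.

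Set directly against each other, vte2 had 0.135 times the day 1 BETA-VPE mean of vte1, so that vte1 was 7.43 times as high. The log2 difference, vte2 minus vte1, was -2.76 ± 0.35. The ratios of vte2 to vte1 by replicate number were 0.134, 0.124 and 0.162. All 3 vte2 arrays lay below all 3 vte1 arrays for 8.35% of the tested probe sets, and 0.0942% had a larger difference downward. Across whole seedlings, a change in the number of cells that express a gene and a change in its RNA per cell cannot be told apart.

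By day 3 the genotypes lay closer together. The vte2 mean was 0.78 times WT (log2 difference -0.32 ± 0.35) and 0.63 times vte1 (-0.58 ± 0.35). The vte1 mean was 1.24 times WT (0.26 ± 0.35). The groups overlapped in all 3 day 3 comparisons. For scale, 21% of tested probe sets had a larger fall in vte2 against WT, and 27.9% a larger rise in vte1 against WT.

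The BETA-VPE level at day 3 was below that at day 1 in all 3 genotypes by the mean. In vte1 the day 3 mean was 0.144 times the day 1 mean, a log2 difference of -2.66 ± 0.35. Without replicate 1 in all groups that difference was -2.15. In WT the day 3 mean was 0.388 times the day 1 mean (-1.28 ± 0.35). In vte2 it was 0.673 times (-0.48 ± 0.35), and the arrays of the 2 days overlapped. Day 3 lay entirely below day 1 in vte1 for 25.7% of tested probe sets and in WT for 26.3%, so non-overlap between days was common on these arrays.

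The other 3 members of the family were tested with limma over all 15922 probe sets, with Benjamini-Hochberg adjustment within each contrast. A gene is said to pass at an adjusted value under 0.05. Among all probe sets tested at day 1, 2.09% passed in vte1 against WT, 0.0942% in vte2 against WT and 5.22% in vte2 against vte1. At day 3 against day 1, the share that passed was 40.2% in vte2, 53.3% in vte1 and 47.4% in WT.

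DELTA-VPE, the seed coat member, was high at day 1. Its day 1 signal was 2099.4, 1526.8 and 1079.1 in vte2, 3552.3, 3261.8 and 4477.6 in vte1, and 1252.7, 1909.3 and 2419.6 in WT. Every vte1 array lay above every vte2 and WT array, and vte2 overlapped WT. Of all tested probe sets, 6.47% had all 3 vte1 arrays above all 3 WT arrays at day 1. For 8.35% all 3 vte1 arrays lay above all 3 vte2 arrays. DELTA-VPE fell by 1.29 ± 0.34 on the log2 scale in vte2 relative to vte1 (adjusted p = 0.033). Its difference between vte1 and WT was 1.05 ± 0.34 (adjusted p = 0.16, or 0.078 with a replicate block), and between vte2 and WT -0.24 ± 0.34 (adjusted p = 1).

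That DELTA-VPE call between the mutants was kept in 10 of 19 alternative settings. Among the settings that lost it were the removal of any one vte1 array or of vte2 replicate 2 or 3 (adjusted p = 0.052 to 0.18), and of replicate 1 or 2 from every group (0.2 and 0.27). Its log2 difference stayed between -1.56 and -0.89.

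At day 3 DELTA-VPE signals were 262.7, 280.5 and 471.6 in vte2, 243.3, 216.7 and 333.8 in vte1, and 229.3, 118.1 and 352.6 in WT. DELTA-VPE fell between day 1 and day 3 in every genotype, with log2 differences of -2.14 in vte2 (limma adjusted p = 6.7e-05), -3.73 in vte1 (4.6e-08) and -2.94 in WT (1.2e-06). All 3 calls were kept in each of 19 alternatives.

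ALPHA-VPE, a vegetative member, had the opposite day 1 picture in vte1. Its signal was 83.9, 106.4 and 158.3 in vte2, only 11.3, 41.7 and 18.1 in vte1, and 165.3, 153.3 and 111 in WT. No vte1 array reached any vte2 or WT array. The share of all tested probe sets with that order is not given here. In the opposite order, 6.47% of them had all 3 vte1 arrays above all 3 WT arrays, and 8.35% above all 3 vte2 arrays. ALPHA-VPE fell by 1.89 ± 0.44 in vte1 relative to WT (limma adjusted p = 0.027) and was higher by 1.62 ± 0.44 in vte2 than in vte1 (adjusted p = 0.037), both on the log2 scale. In vte2 against WT the difference was -0.28 ± 0.44 (adjusted p = 1).

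The call for ALPHA-VPE in vte1 against WT was kept in 11 of 18 alternatives and lost without vte1 replicate 1 (adjusted p = 0.15) or WT replicate 1, 2 or 3 (0.12, 0.11 and 0.052). It was also lost without replicate 1 or 2 of every group (0.81 and 0.32). The call in vte2 against vte1 was kept in 6 of 18 and lost, among others, without vte1 replicate 1 (0.17), without vte2 replicate 1, 2 or 3 (0.051, 0.081 and 0.18) and without replicate 1, 2 or 3 of every group (0.39, 0.13 and 0.051). The 3 vte1 arrays of day 1 lay near the pseudocount of 22, where a log2 difference is compressed.

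At day 3 ALPHA-VPE was 48.9, 39.4 and 145.9 in vte2, 173.8, 155.8 and 161.2 in vte1, and 104.2, 22 and 125.6 in WT. In vte1 the gene rose by 2.08 ± 0.44 between day 1 and day 3 (limma adjusted p = 0.00059), a call kept in each of 18 alternatives. The same contrast gave -0.58 in vte2 (adjusted p = 0.31) and -0.80 in WT (0.14).

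GAMMA-VPE, the other vegetative member, moved with time. Its day 3 signal was 4840.8, 4759.8 and 4020 in vte2, 4375.2, 4462.9 and 4576.1 in vte1, and 4911.6, 4044.7 and 6152.3 in WT. At day 1 it was 1766.9, 1115.7 and 2030.1 in vte2, 819.7, 985.4 and 1060.9 in vte1, and 1051.9, 1246.6 and 1779 in WT. GAMMA-VPE rose between day 1 and day 3 by 1.497 in vte2, 2.21 in vte1 and 1.89 in WT on the log2 scale (limma adjusted p = 6.3e-05, 3.5e-07 and 3.3e-06), and all 3 calls were kept in each of 19 alternatives.

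At day 1 GAMMA-VPE differed by 0.73 ± 0.24 in vte2 against vte1, with a limma adjusted p of 0.091 that became 0.043 in the fit blocked by replicate number. The vte1 arrays overlapped WT, with a difference of -0.47 (adjusted p = 0.47). None of the 3 other family members passed between genotypes at day 3, where the shares of all tested probe sets were 2.34% in vte2 against WT, 3.52% in vte2 against vte1 and 0.301% in vte1 against WT. At an unadjusted limma p under 0.05 there was 1 of the 3 in vte1 against WT, 1 in vte2 against vte1 and none in vte2 against WT.

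**Figure D2:**
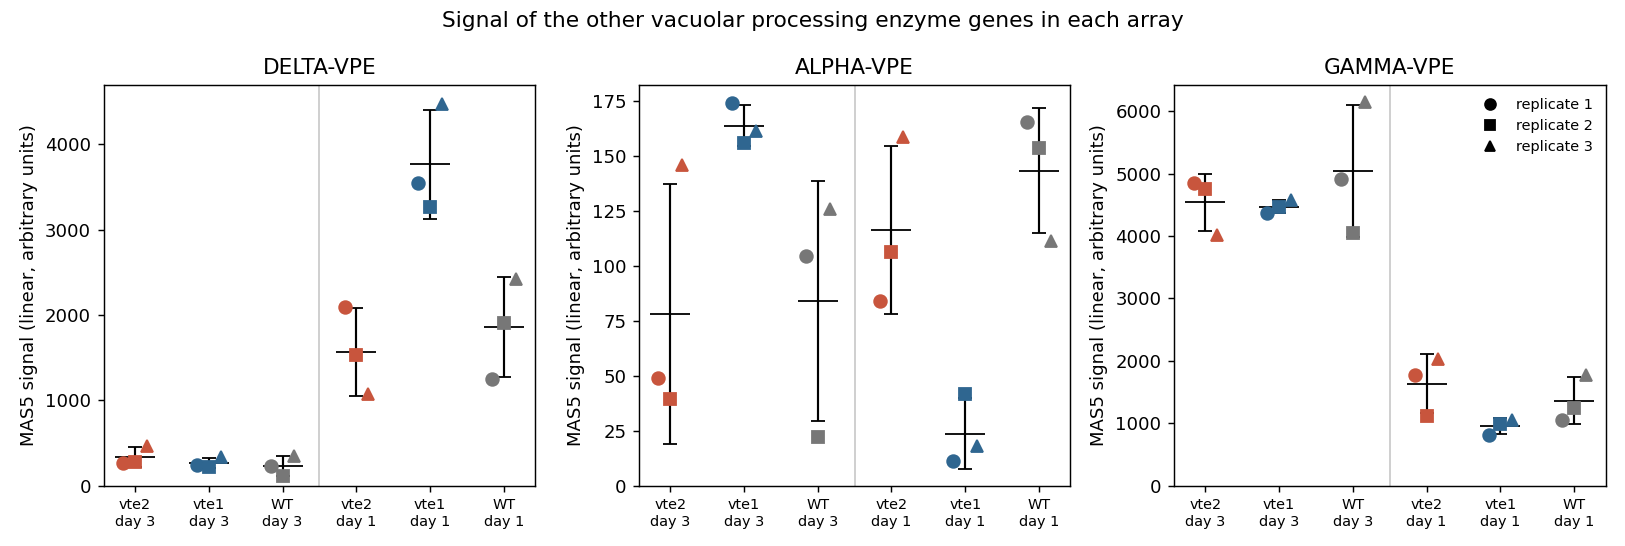
Signal (MAS5, linear, arbitrary units, vertical axes with separate scales) of DELTA-VPE, ALPHA-VPE and GAMMA-VPE in each array, with group mean ± SD as lines (n = 3) and the replicate number as the symbol. DELTA-VPE reached 3261.8 to 4477.6 in vte1 at day 1, ALPHA-VPE only 11.3 to 41.7 there, and GAMMA-VPE read 4020 to 6152.3 over all arrays of day 3.

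None of the 12S globulin or 2S albumin genes could be tested. Of 13 storage protein loci listed, 5 had a probe set annotated to a single gene, and the only one of these from the 12S globulin family, AT1G03890, did not pass the filter on low signals. The 2 genes tested were the vicilin-like PAP85 and AT2G28490, of the cupin family. Group means ran from 104.1 to 207 for PAP85 and from 32.2 to 146.4 for AT2G28490, beside array medians of 122 to 181.1. Neither passed with limma, and neither had an unadjusted p under 0.05, in any contrast between genotypes, or between the days in vte2 or WT. Between day 1 and day 3 in vte1, AT2G28490 fell by 1.81 ± 0.74 on the log2 scale (limma adjusted p = 0.047). That call was kept in 10 of 18 alternatives and lost without vte1 day 3 replicate 1 or 2 (0.17 and 0.16), without vte1 day 1 replicate 1 or 2 (0.16 and 0.079) and without replicate 1 or 2 of every group (0.42 and 0.24).

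PAP85 had 301.3, 244.6 and 66.1 in vte2, 134.4, 137.5 and 179.2 in vte1, and 293.3, 279 and 48.6 in WT at day 1. Replicate 3 was the lowest array in vte2 and in WT. The summed signal of the 5 storage protein genes at day 1 was 122.1 to 593.2 in vte2, 288.7 to 433.1 in vte1 and 136.3 to 456.8 in WT, so the 3 genotypes overlapped.

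The lists held 145 loci, of which 48 had a usable probe set and 40 were tested. They cover the 3 other family members described above, seed and protease genes, and the leaf, root and seed coat markers. The lists were chosen with earlier results of these data known. A share above that of all tested probe sets, here and below, is therefore a description and not independent evidence. In vte1 against WT at day 1, 4 of the 40 rose and 5 fell, ALPHA-VPE among the falls, 22.5% of them against 2.09% of all tested probe sets, of which 0.201% rose and 1.89% fell. These counts rest strongly on single replicates: they went to 0 without replicate 1 or replicate 2 in all groups, to 22 without replicate 3, to 1 and 2 without vte1 replicates 1 and 2, and to 2 and 1 without WT replicates 1 and 3. In vte2 against WT none of the 40 passed with limma, with 1 at an unadjusted p under 0.05 and 0 with the replicate block. Without replicate 3 in all groups 2 of them fell.

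In vte2 against vte1 at day 1, 6 of the 40 were higher, ALPHA-VPE included, and 6 lower, DELTA-VPE included, 30% of them against 5.22% of all, of which 4.13% were higher and 1.09% lower. That count of 12 was 0 without replicate 1 or replicate 2 in all groups and 22 without replicate 3. It was 4 and 5 without vte1 replicates 1 and 2, and 5 without vte2 replicate 3.

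Late embryogenesis and oil body genes, whose products protect the drying seed or coat its oil bodies, gave all 4 of the rises in vte1 against WT. Of 12 tested, 4 rose, none fell and 8 did not pass, with a median log2 difference of 2.03, against a median of -0.0044 over all tested probe sets. With the replicate block 5 rose. AtLEA4-1, a group 4 late embryogenesis abundant gene, had 6510.7, 7803.2 and 1472.8 in vte1 and 1394.8, 1431.7 and 102.5 in WT at day 1, a log2 difference of 2.74 ± 0.69 (limma adjusted p = 0.04). Its vte2 arrays read 476.8, 576.4 and 484.4. The AtLEA4-1 call was kept in 11 of 19 alternatives and lost without vte1 replicate 1 or 2 (adjusted p = 0.22 and 0.25), without WT replicate 3 (0.15) and without replicate 1 or 2 of every group (0.58 and 0.6).

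In vte2 against vte1, 5 of the 12 fell and none rose, with a median of -2.25 against 0.022 over all. The BETA-VPE differences of 1.64 and -2.76 lay on the side of both medians. In vte2 against WT none of the 12 passed with limma, none had an unadjusted p under 0.05, and the median was -0.23, beside -1.12 for BETA-VPE. The signal was also summed over the 14 genes of this list with a usable probe set. At day 1 the sum was 2247.8 to 3595.4 in vte2, 8035.8 to 32731.2 in vte1 and 738.4 to 6382.2 in WT. Replicate 3 was lowest in each genotype.

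Among 9 papain-type proteases tested at day 1, 1 fell in vte1 against WT and 1 was higher in vte2 than in vte1, in both cases AT3G19390. Its signal was 1333, 1213.6 and 1402 in vte2, 323.5, 303.9 and 1089.2 in vte1, and 1279.8, 1311.5 and 1372.4 in WT at day 1. The vte1 arrays were below all others, least so in replicate 3. The share of all tested probe sets with that order is not given here. The log2 difference was -1.43 ± 0.33 in vte1 against WT (limma adjusted p = 0.028) and 1.42 ± 0.33 in vte2 against vte1 (0.016). The first of these calls was lost without any one of vte1 replicates 1 and 2 or WT replicates 1, 2 and 3 (adjusted p = 0.089 to 0.21), and without replicate 1 or 2 of every group (0.92 each). The second was lost without vte1 replicate 1 or 2 (0.11 and 0.12), without vte2 replicate 3 (0.062) and without replicate 1 or 2 of every group (0.48 and 0.42).

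None of 3 aspartic proteases and none of 3 cystatins, which are inhibitors of papain-type proteases, passed between genotypes at day 1 with limma, and none had an unadjusted p under 0.05 there. APA1, a vacuolar aspartic protease, had 15036.8, 14558.5 and 10690.1 in vte2, 20934.4, 22591.2 and 10996.9 in vte1, and 16185.4, 12712.9 and 10126.1 in WT at day 1, and replicate 3 was lowest in every genotype as for BETA-VPE. BZIP53, a bZIP transcription factor that acts on seed maturation genes, was the 1 tested regulator and gave 0.27 ± 0.25 in vte2 and 0.04 ± 0.25 in vte1 against WT on the log2 scale. No probe set was usable for the 18 loci of vacuolar sorting and the tonoplast, which are not analysed here.

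**Figure D3:**
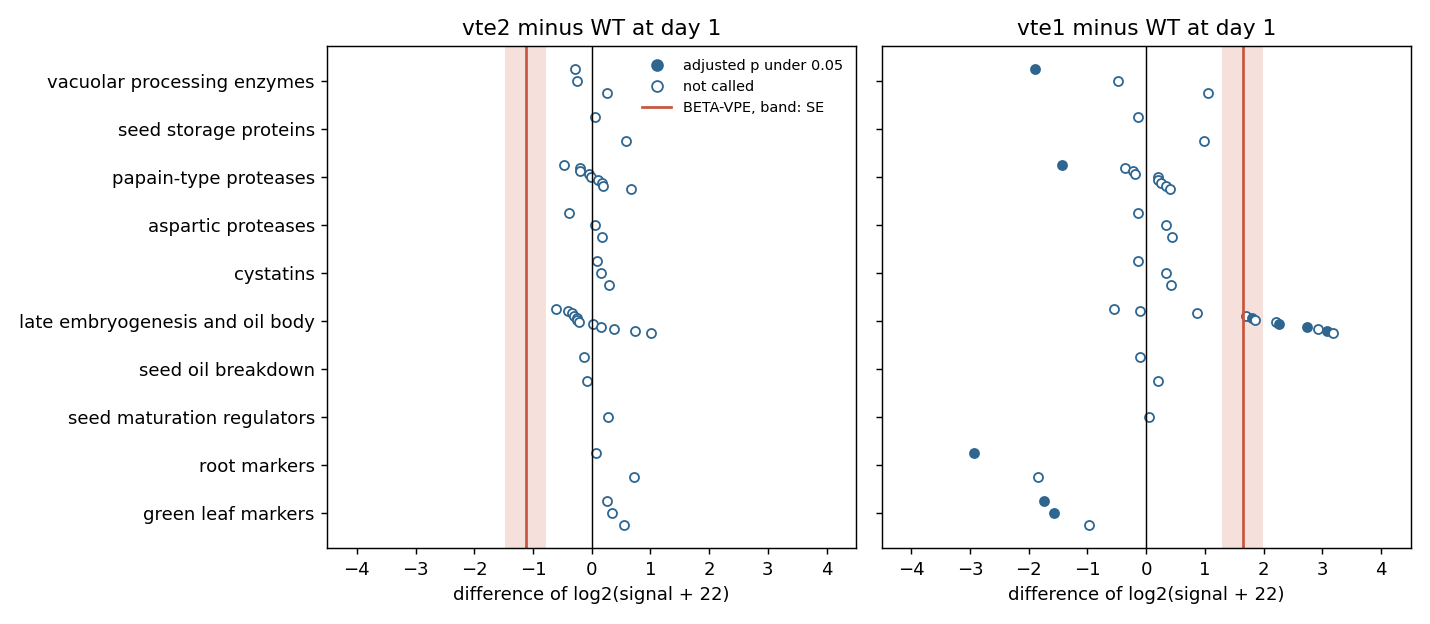
Difference of log2(signal + 22) at day 1 (horizontal axis) for the tested genes of each list (rows), vte2 minus WT on the left and vte1 minus WT on the right, filled where the limma adjusted p was under 0.05. The red line and band give BETA-VPE and its SE, -1.12 and 1.64, and 4 of the 12 late embryogenesis and oil body genes are filled on the right and none on the left.

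Markers of other tissues differed between the same groups. All 3 green leaf genes with a usable probe set were tested. Their summed day 1 signal was 13876.8 to 20344.1 in vte2, 3201.8 to 10106.1 in vte1 and 11377 to 13641.5 in WT. PSAE-1 and PSAN, which encode photosystem I subunits, were lower in vte1 than in WT, with log2 differences of -1.74 ± 0.30 and -1.57 ± 0.33 (limma adjusted p = 0.0033 and 0.014). Both root hair expansins tested, EXPA7 and EXPA18, summed to 436.3 to 4759.9 in vte2, 61.6 to 324.2 in vte1 and 673.8 to 1059.7 in WT, and EXPA7 fell in vte1 against WT by 2.93 ± 0.65 (adjusted p = 0.02). Without replicate 1 or 2 of every group the adjusted p was 0.47 and 0.56 for PSAE-1, 0.59 and 0.61 for PSAN, and 0.73 and 0.64 for EXPA7. PSAN and EXPA7 also missed the threshold without any one of vte1 replicates 1 and 2 or WT replicates 1 and 3 (0.051 to 0.14). In each of the 3 genotypes at day 1, replicate 3 had the highest sum of both lists and the lowest BETA-VPE signal.

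Of 7 seed coat and endosperm loci, 2 had a probe set annotated to a single gene. These were DELTA-VPE and the anthocyanidin reductase gene BAN, which makes seed coat flavanols. The sum of the pair was 1082.3 to 2162.7 in vte2, 3316 to 4481.6 in vte1 and 1277.7 to 2421.7 in WT at day 1. BAN itself was low, at 3.2 to 63.3 in vte2, 4 to 54.2 in vte1 and 2.1 to 25 in WT. The part of tissue makeup in the BETA-VPE level was not tested.

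Between day 1 and day 3 in vte2, 8 of the 40 genes rose and 10 fell, 45% of them against 40.2% of all tested probe sets (21.7% higher and 18.5% lower). The count of 18 was 9 without replicate 1 or replicate 2 in all groups. In vte1, 12 rose and 21 fell over the same interval, 82.5% against 53.3% of all (30% higher and 23.4% lower). In WT, 8 rose and 8 fell, 40% against 47.4% of all (24.6% higher and 22.8% lower), and the count of 16 was 9 without replicate 1 and 27 without replicate 3 in all groups.

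Papain-type proteases went both ways in every genotype, with 3 of 9 higher and 3 lower in vte2, 3 and 3 in vte1, and 2 and 3 in WT. All tested probe sets went both ways too, with 21.7% higher and 18.5% lower in vte2. The shares were 30% and 23.4% in vte1, and 24.6% and 22.8% in WT. AT3G45310 had 1346.1, 870.4 and 990.2 at day 3 and 11594.9, 11095.3 and 16667.3 at day 1 in WT, and fell by 3.59 ± 0.26 on the log2 scale (limma adjusted p = 3.7e-09). AT4G01610, of the same list, fell by 2.41 ± 0.17 (3.4e-09), and AT4G16190 rose by 2.17 ± 0.32 (1.7e-05).

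In WT seedlings ICL, the isocitrate lyase of the glyoxylate cycle that turns seed oil into sugar, fell by 2.53 ± 0.46 over the same interval (limma adjusted p = 0.00018). BZIP53 rose by 1.21 ± 0.25 (0.00068, or 0.061 without replicate 1 of every group). The 3 green leaf markers all rose in WT, by 3.01 to 4.07 on the log2 scale.

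Of 12 late embryogenesis and oil body genes, 4 fell between day 1 and day 3 in vte2, 11 in vte1 and 1 in WT, and none rose. As shares these were 33.3%, 91.7% and 8.33%, beside 18.5%, 23.4% and 22.8% of all tested probe sets that fell. Of all tested probe sets 21.7%, 30% and 24.6% rose. Their median log2 difference was -1.50 in vte2, beside -0.48 for BETA-VPE, and -2.89 in vte1, beside -2.66. The median of all tested probe sets was 0.063 in vte2 and 0.137 in vte1. All 4 calls in vte2 were lost without replicate 1 and without replicate 2 of every group (limma adjusted p = 0.057 to 0.26). In vte1 the calls of AT3G17520, AT3G01570, AT4G36600 and M10 were lost in both of these settings. AtLEA4-1 fell in vte2 by a log2 difference of -2.002 ± 0.69 (limma adjusted p = 0.026), a call lost without replicate 1 or 2 of every group (0.14 each), without vte2 day 3 replicate 1 or 3 (0.06 and 0.069) and without vte2 day 1 replicate 1 or 2 (0.055 and 0.074). In vte1 it fell by 4.34 ± 0.69 (3e-05), a call kept in each of 19 alternatives. In WT this gene, the 1 that passed, fell by 1.79 ± 0.69 (limma adjusted p = 0.038), and this call was lost without replicate 1 or 2 of every group (0.33 and 0.28), without WT day 1 replicate 1 or 2 (0.2 and 0.21) and without WT day 3 replicate 1, 2 or 3 (0.067, 0.052 and 0.12). In WT the list had a median log2 difference of -1.18 against 0.075 over all tested probe sets, beside -1.28 for BETA-VPE.

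At day 3, in vte2 against WT, 1 of the 40 was higher and 1 lower, 5% of them against 2.34% of all probe sets (1.75% higher and 0.59% lower). AT4G01610 rose in vte2, at 5811.6, 5725.9 and 8708.5 against 3095.6, 2936.9 and 3544.8 in WT, a log2 difference of 1.05 ± 0.17 (limma adjusted p = 0.0018). The call was lost without replicate 1 or replicate 2 in all groups (0.14 and 0.23). The count of 2 was 0 without replicate 1 or replicate 2 and 6 without replicate 3 in all groups, and 1 without any one of vte2 replicates 1, 2 and 3 or WT replicates 1 and 2. In vte1 against WT none passed with limma, beside 0.301% of all probe sets, with 7 at an unadjusted p under 0.05 and 0 with the replicate block. That count was 13 without replicate 3 in all groups, 1 without vte1 replicate 3 and 2 without WT replicate 3.

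In vte2 against vte1 at day 3, 3 of the 40 were higher and 1 lower, 10% of them against 3.52% of all (2.53% higher and 0.986% lower). ICL was higher, at 12285.7, 11572.3 and 14013.4 in vte2 against 1545.4, 1397.8 and 4678.9 in vte1, a log2 difference of 2.53 ± 0.46 (limma adjusted p = 0.0037). AT4G01610 was higher by 0.86 ± 0.17 (0.0079), and AT1G62290, of the aspartic protease list, by 1.37 ± 0.35 (0.035). AT2G27420, of the papain-type list, was lower, at 117.4, 9.4 and 204.1 in vte2 against 689.5, 629.8 and 598.9 in vte1, a log2 difference of -2.73 ± 0.56 (0.0086). The count of 4 was 0 without replicate 1 or replicate 2 in all groups and 15 without replicate 3. The AT1G62290 call was also lost without vte1 replicate 1 or 2 (0.16 and 0.21) or vte2 replicate 1, 2 or 3 (0.083, 0.075 and 0.11).

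Genes with the pattern most like that of BETA-VPE were ranked among 8710 tested probe sets of a single gene by Pearson's r of log2(signal + 22) over the 18 arrays. The median r of all candidates was -0.084, and 6 exceeded 0.9. The 18 points share 6 groups, the day, the genotype and the array scaling, so r is a description. AT2G25890 came first (r = 0.932), with mean signals of 7.07 in vte2, 46.8 in vte1 and 30.1 in WT at day 3, and 50.1 in vte2, 499.6 in vte1 and 94.7 in WT at day 1. AT5G39850 came second (0.926), then AT1G27461 (0.917), AT1G02700 (0.912), AT2G27590 (0.909) and CW7 (0.907).

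The rest of the 10 highest were LEA4-5, a late embryogenesis gene (0.891), AT1G49470 (0.891), AT3G19790 (0.887) and AT4G18593 (0.887). LEA4-5 averaged 683 in vte2, 8196 in vte1 and 1344 in WT at day 1. AtLEA4-1 followed at rank 11 (0.884). Within the family, DELTA-VPE ranked 382 of 8710 (r = 0.750), ALPHA-VPE gave -0.466 and GAMMA-VPE -0.774.

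The genes picked for the lowest r in this ranking ran opposite to BETA-VPE. UPB1, a bHLH transcription factor of root growth, had the lowest r (-0.949), with 275 in vte2, 23 in vte1 and 191 in WT at day 1. It was followed by AT1G09310 (-0.934), AT1G29670 (-0.922), AT1G13670 (-0.921) and AT2G21045 (-0.914). Among the genes of the lists, PSAE-1 gave -0.851, EXPA18 -0.798 and EXPA7 -0.693.

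A ranking on deviations from the mean of the same day, which takes the change with time out, shared only AT2G25890 with the 10 highest of the first ranking. AT1G29520 led (r = 0.924 over 18 deviations), followed by TRY (0.916), an R3 MYB protein of trichome and root hair patterning, and TMT2 (0.915), a sugar transporter of the tonoplast. AT4G34600 (0.908), AT4G21310 (0.902), AT1G77700 (0.898), AT2G25890 (0.889), AT3G18260 (0.889), AT5G59130 (0.883) and AT1G63310 (0.877) completed the 10. TMT2 averaged 227.4 in vte2, 912.9 in vte1 and 369 in WT at day 1. It thus had the day 1 order of BETA-VPE, vte1 above WT and WT above vte2, by the mean. The 5 lowest were AT2G14900 (-0.929), UPB1 (-0.914), AT1G09310 (-0.893), AT5G22310 (-0.889) and AT4G23670 (-0.886).

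The 3 vte1 arrays of day 1 carry much of this likeness. Over the other 15 arrays the 10 highest genes of the first ranking kept r between 0.618 and 0.854, and those of the second kept 0.648 to 0.871 over deviations. The 5 lowest lay between -0.853 and -0.686 in the first ranking and between -0.802 and -0.511 in the second.

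**Figure D4:**
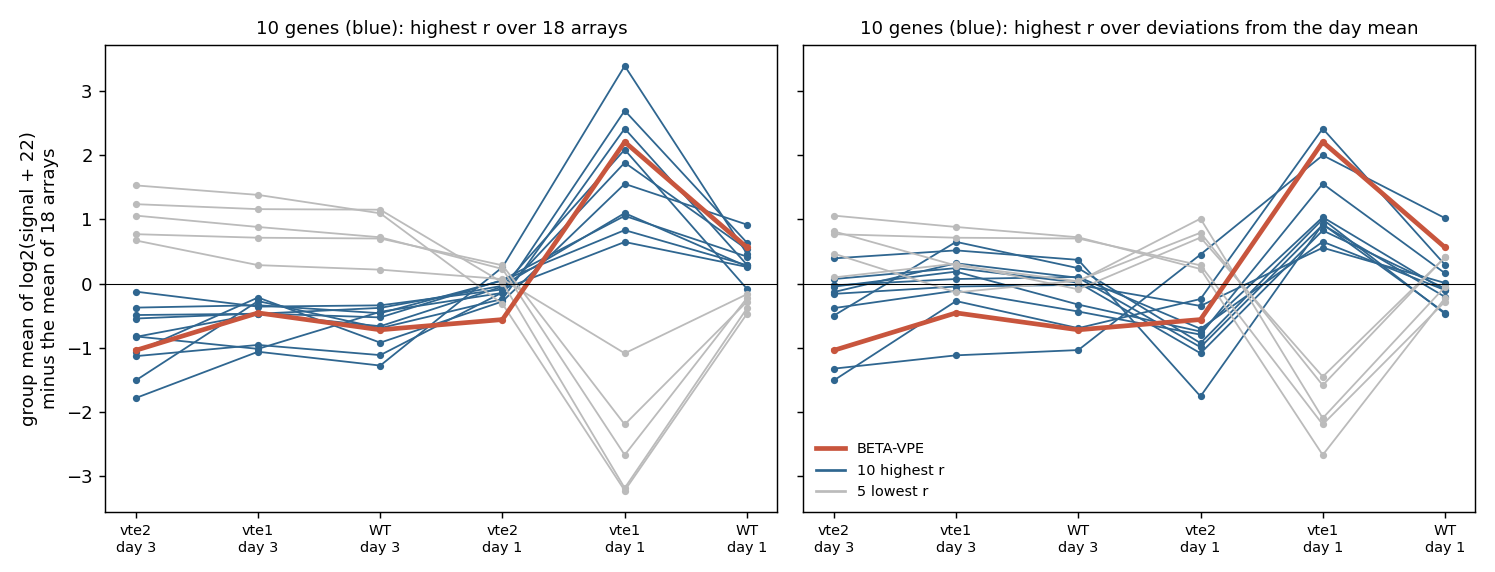
Group mean of log2(signal + 22) minus the mean of all 18 arrays (vertical axis) for BETA-VPE (red), the 10 genes with the highest r (blue) and the 5 with the lowest (grey), over 18 arrays on the left and over deviations from the day mean on the right. The red line peaks in vte1 at day 1, where the blue lines lie above 0 and the grey lines below it.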

How the data were processed

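RNA of 18 seedling samples was hybridised to 1-colour ATH1 arrays. The deposited intensity values are linear, 1 for each probe set and array. Per the submitters' processing notes they are MAS5 signals. The software version and scaling target were not given in the sources used here. Detection calls were not used. The trimmed mean (2% cut at each end) was 500 to 500.1 in every array, as left by scaling to a common value. Such scaling fixes that agreement in advance, so it is no check on how comparable the arrays are. Of 22746 probe sets without the 64 controls, 13513 were annotated to 1 gene, 503 to several and 8730 to none; names follow the RefSeq TAIR10.1 table (13436 matched), and no coordinates are given because the build of the array annotation is not stated.

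Signals were analysed as log2(signal + 22), where 22 is the 20th percentile of all signals, and 15922 probe sets above the 30th percentile of mean log2 signal were tested. A fold change on this scale understates the change of low genes. One limma model (limma 3.58.1, R 4.3.3) fitting 6 group means with a trended prior gave all contrasts, with Benjamini-Hochberg adjustment within each contrast at 0.05. BETA-VPE stayed in the model, but only its difference and SE are reported. Levels were not compared between probe sets. The procedure was tested on simulated data with 200 changed probe sets. The simulated noise was independent between arrays, so it could not cover deviations shared by same-numbered replicates.

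Genes were named by rule: BETA-VPE, every listed locus with a probe set of 1 gene (the one of highest mean signal), and the 10 highest and 5 lowest by each likeness ranking. The gene and the lists were chosen with earlier results of these data known, so neither is independent evidence.

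Deviations of same-numbered replicates from their group means were correlated at day 1 (r of 0.254 to 0.592 across probe sets). They were also correlated for vte2 against WT at day 3 (0.15 to 0.37). At day 1 replicate 3 stood apart, with r of 0.515 to 0.592, while its highest r with another number was -0.394 to -0.374. For replicates 1 and 2 these were 0.254 to 0.358 and 0.185 to 0.373, so their own number was not set apart. The 3 deviations of a group cancel out, so a departure shared by replicate 3 alone also makes r positive among replicates 1 and 2. In the other comparisons the same-number r was -0.00757 to 0.131. No label says what the numbers share. Unless the replicate block is named, SEs, p-values and calls come from the fit without a replicate term. The block, an alternative in every contrast, gave each number an effect shared by both days. Replicates are labelled as biological. The p-values rest on the spread between replicates pooled over all 6 groups and moderated by the trended prior, not on that of the compared groups alone. BETA-VPE thus has the same SE in every contrast, although its log2 SD was 0.73 in vte1 at day 1 and 0.22 in vte2 at day 3. Alternatives changed the pseudocount, filter, scaling, trend, array weights, arrays fitted and replicates. Likeness without the vte1 day 1 arrays was added after the data were seen.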

Additional observations from a re-analysis of the deposited data

Results flagged for a closer look

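BETA-VPE at day 1 stood out because all 3 vte2 arrays lay below, and all 3 vte1 arrays above, the 3 WT arrays. The log2 difference of vte2 minus vte1 was -2.76. The gene was chosen with these values known, and the difference between the mutants' effects was not tested.

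PSAE-1, a photosystem I gene of the green leaf list, lay the other way at day 1. Its signal was 8891.4, 7547.1 and 7393.7 in vte2, 1330.1, 1017.4 and 2989.2 in vte1, and 5465.2, 6132.7 and 4651.3 in WT. For PSAE-1 the log2 difference of vte2 minus vte1 was 2.29 with a limma adjusted p of 0.00013, which became 0.053 without replicate 1 and 0.056 without replicate 2 of every group. At day 1, 0.823% of all tested probe sets had this order.

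M10, of the late embryogenesis list, lay above WT in all vte2 arrays and below WT in all vte1 arrays at day 3. Its signal was 83, 48.5 and 259.3 in vte2, 4.8, 7.9 and 11.6 in vte1, and 20.7, 37.2 and 14.3 in WT. For M10 that difference was 2.09 with a limma adjusted p of 0.062, so it did not pass. The vte1 signals lie below the pseudocount of 22, and so do the WT signals of 20.7 and 14.3. At day 3, 0.565% of all tested probe sets had this order.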

How the results depend on the processing

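Of the recalculated BETA-VPE log2 differences, 36 could not move because the design is balanced or the choice acts on other probe sets: the replicate block, which changed only the SE (0.316), both filters and the fits to the 6 arrays of a contrast. The other 126 kept their sign, and 125 of them moved by less than the pooled SD of 0.473 between replicates. The 1 exception was day 3 minus day 1 in vte1 without replicate 1 (-2.15). Leaving out arrays gave 1.38 to 2.06 for vte1 minus WT at day 1, -1.35 to -0.83 for vte2 minus WT, -3.18 to -2.47 for vte2 minus vte1, and -3.13 to -2.15 for day 3 minus day 1 in vte1. It gave -0.78 to -0.14 for day 3 minus day 1 in vte2 and -1.64 to -1.08 in WT. At day 3 it gave 0.066 to 0.513 for vte1 minus WT, -0.49 to -0.19 for vte2 minus WT and -0.83 to -0.39 for vte2 minus vte1. Counts of the 40 listed genes moved as well. In vte1 against WT at day 1 the count of 9 became 22 with array weights, 5 with the filter at the 50th percentile, 1 with those 6 arrays alone, 10 with the replicate block, and 0 to 22 when arrays were left out. Without replicate 1 or 2 it was 0, with 13 at an unadjusted p under 0.05 in each case. In vte2 against vte1 at day 1 the count of 12 became 26 with array weights, 5 with those 6 arrays alone, 14 with the replicate block, and 0 to 22 when arrays were left out, the 0 coming without replicate 1 or 2 (13 and 18 at an unadjusted p under 0.05). In WT the day 3 against day 1 count of 16 became 9 to 27 when arrays were left out and was 16 with the replicate block. In vte2 against WT at day 1 the count of 0 became 2 without replicate 3. The same alternatives were run on the other contrasts after the data were seen. At day 3 the count of 2 in vte2 against WT became 1 with the filter at the 50th percentile and 0 to 6 when arrays were left out. The count of 4 in vte2 against vte1 became 11 with array weights and 0 to 15 when arrays were left out, and the count of 0 in vte1 against WT became 8 with array weights and 0 to 13. Between the days, the count of 18 in vte2 became 9 to 27 and that of 33 in vte1 22 to 35. Of 94 calls on listed genes over all contrasts, 39 were kept in every alternative, and none changed sign. Quantile scaling kept 9 and 10 of the 10 most alike genes in the 2 rankings and Spearman's rho kept 3 and 7. The cause of these shifts was not tested. Signals below about 22 have little resolution on the log2 scale used.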
